A study of Sus scrofa with 8 samples.

Results

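The 9 genes described here mark B cells and plasma cells in pig liver. They were the rows of the table of all libraries whose symbol is CD79A, CD79B, MS4A1, CD22, PAX5, FCRLA, JCHAIN, MZB1 or POU2AF1. The rule goes by gene name and uses no measured value, but the names were chosen with earlier results of these data known. All 9 were found among the 18103 genes listed. The study fed a steatotic diet, rich in saturated fat, fructose, cholesterol and cholate and deficient in methionine and choline, to male Landrace x Large White pigs and measured hepatic RNA by poly-A RNAseq in 8 libraries, each a pool of 2 pigs. The 4 Control libraries came from the initial state, at 4 months of age and before any steatotic diet, and were biopsies taken by laparotomy. The 4 Steatosis libraries came from the same animals at 6 months of age, after 2 months on the diet, and were taken after euthanasia. No pigs of 6 months without the diet were analysed here, so diet, age and way of sampling cannot be told apart in any difference below. Nothing says which pigs entered which pool, and p-values measure the spread between pools.

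B lymphocytes carry an antibody on their surface, the B cell receptor, which signals through the CD79A and CD79B chains. When activated they can mature into plasma cells, which lose most of the receptor machinery and secrete antibody. In liver these cells are a minority of the leukocytes, lying in the sinusoids and portal tracts, and the antibody receptor of biliary and intestinal epithelia carries J chain-containing antibody into bile and gut. A bulk library reports the summed RNA of all cells, so fewer cells of a type and less RNA per cell cannot be told apart.

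Values are FPKM as deposited, fragment numbers scaled to the length of the transcript and the size of the library, which allows levels to be compared between genes. Genes were tested with limma on log2(FPKM + 0.1) if 4 or more of the 8 libraries had 0.3 FPKM or more, which held for 13175 genes. All members except PAX5 passed, and each of those 8 was above this level in every library, with 0.43 FPKM as the lowest value. From the steps between low values the libraries were estimated to hold 18500000 to 20600000 fragments. The summed level of the 9 members was 23.1, 40.9, 57.9 and 27.5 FPKM in Control pools 1 to 4 and 24.0, 17.3, 17.9 and 21.9 FPKM in Steatosis pools 1 to 4. JCHAIN made up most of this sum in each library. One library stood apart in tissue content: Control pool 1 held 2262 FPKM of stomach mucosa markers and 2781 FPKM of skeletal muscle markers. Stomach markers were at 22.4, 44.8 and 5.89 FPKM in Control pools 2 to 4 and at 6 to 6.59 FPKM in Steatosis. Muscle markers were at 0.82, 8.38 and 20.9 FPKM in Control pools 2 to 4 and at 0.11 to 0.39 FPKM in Steatosis.

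Of the 8 members tested, 6 had a negative and 2 a positive log2 fold change from Control to Steatosis, with a median of -0.61, where the median over all 13175 genes was 0.25. At the limits used by the study, that is below 0.01 for the adjusted p and above 1 for the size of the log2 fold change, 1 member was lower (MS4A1) and 0 were higher in Steatosis by limma, beside 0.334% of all tested genes lower and 6.01% higher. At an adjusted p under 0.05 with no limit on the fold, 3 members were lower (CD79A, MS4A1 and JCHAIN) and 0 higher, beside 2.28% of all genes lower and 26.7% higher. At an unadjusted p under 0.05 the counts were 4 lower and 0 higher, beside 4.13% and 37.8% of all genes. The groups did not overlap for 3 tested members, CD79B, MS4A1 and JCHAIN, each lower in Steatosis, beside 2.53% of all tested genes.

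**Figure D1:**
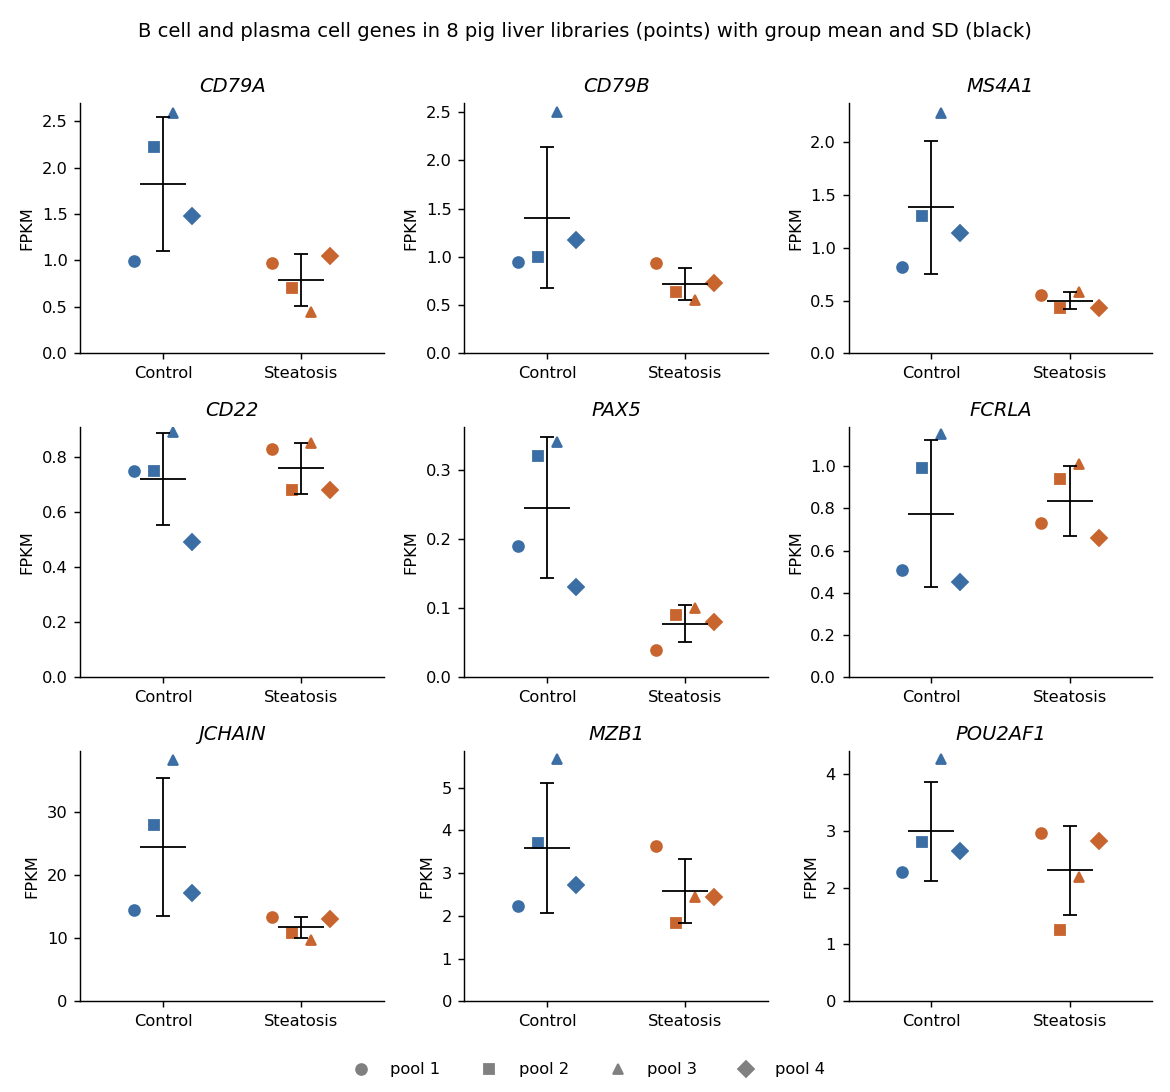
FPKM (y axis, linear, from 0) of each of the 9 genes in the 4 Control and 4 Steatosis libraries, with the symbol shape giving the pool number, the black line the group mean and the bar the SD. Control pool 3 is the highest Control library for every gene, and the Steatosis libraries of MS4A1 (0.43 to 0.58 FPKM) and JCHAIN (9.77 to 13.3 FPKM) lie below all Control libraries.

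The signalling chains of the B cell receptor were low in both groups. CD79A, the alpha chain (gene 100190992, chromosome 6, 49996116 to 49999294 of Sscrofa11.1), had 0.99, 2.22, 2.59 and 1.48 FPKM in Control pools 1 to 4 and 0.97, 0.70, 0.44 and 1.05 FPKM in Steatosis pools 1 to 4. Control pool 1 lay among the Steatosis libraries, and the other 3 Control libraries were above all of them. The mean went from 1.82 ± 0.721 to 0.790 ± 0.277 FPKM (SD, n = 4), 2.30 times higher in Control. CD79A fell by 1.08 on the log2 scale (SE 0.33, limma adjusted p = 0.0331), a call that was lost once pool number was blocked (adjusted p = 0.0598) and when Control pool 2, 3 or 4 or Steatosis pool 2 or 3 was left out (adjusted p 0.05005 to 0.0801). The exact permutation test of its mean FPKM, two-sided, gave p = 0.0571. It took the libraries as unpaired, and the smallest p possible with 4 pools against 4 is then 0.0286.

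CD79B, the beta chain (gene 100511898, chromosome 12, 15052966 to 15056441), had 0.95, 1.0, 2.50 and 1.18 FPKM in Control pools 1 to 4 and 0.94, 0.64, 0.55 and 0.73 FPKM in Steatosis pools 1 to 4. The groups did not overlap, but Control pool 1 and Steatosis pool 1 were next to each other and Control pool 3 stood well above all other libraries. The log2 fold change was -0.80 (SE 0.30, limma adjusted p = 0.0666) and did not pass, while the exact permutation p of the means was 0.0286. Without Control pool 3 the log2 fold change was -0.51 (limma adjusted p = 0.112). The products of CD79A and CD79B pair in the receptor, and the ratio of their levels overlapped between the groups, at 1.04 to 2.22 in Control and 0.80 to 1.44 in Steatosis.

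Among the surface molecules of B cells, MS4A1 and CD22 differed in behaviour. MS4A1, which encodes the B cell antigen CD20 (gene 100627952, chromosome 2, 11216238 to 11229060), had 0.82, 1.30, 2.28 and 1.14 FPKM in Control pools 1 to 4 and 0.55, 0.43, 0.58 and 0.43 FPKM in Steatosis pools 1 to 4. Every Control library was above every Steatosis library, and the Steatosis libraries lay close together. The means were 1.39 ± 0.629 and 0.498 ± 0.0789 FPKM (SD, n = 4), 2.78 times higher in Control. MS4A1 fell by 1.23 on the log2 scale (SE 0.28, limma adjusted p = 0.00937), and in the fit blocked by pool number this p was 0.00988. Without any 1 of the libraries other than Control pool 1 its adjusted p was 0.0138 to 0.0292, above the limit of 0.01 but under 0.05.

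CD22, an inhibitory lectin that binds sialic acid and damps receptor signals (gene 102161349, chromosome 6, 44820593 to 44834392), had 0.75, 0.75, 0.89 and 0.49 FPKM in Control pools 1 to 4 and 0.83, 0.68, 0.85 and 0.68 FPKM in Steatosis pools 1 to 4. The groups overlapped throughout. The log2 fold change was 0.09 (SE 0.20, limma adjusted p = 0.768), and its sign turned under other scalings of the libraries (-0.13 with median ratio scaling). FCRLA, an intracellular Fc receptor-like protein of B cells (gene 100154450, chromosome 4, 88846054 to 88855310), had 0.51, 0.99, 1.15 and 0.45 FPKM in Control pools 1 to 4 and 0.73, 0.94, 1.01 and 0.66 FPKM in Steatosis pools 1 to 4. In Control, pools 2 and 3 were about 2 times pools 1 and 4, and all Steatosis pools lay within the Control range. Its log2 fold change was 0.17 (SE 0.29, limma adjusted p = 0.691), again with a sign that turned under median ratio scaling (-0.05).

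CD22 and FCRLA thus parted from MS4A1 within the same libraries. The ratio of CD22 to MS4A1 was 0.390 to 0.915 in Control and 1.47 to 1.58 in Steatosis, and that of FCRLA to MS4A1 was 0.395 to 0.762 in Control and 1.33 to 2.19 in Steatosis. Neither ratio overlapped between the groups (exact permutation p = 0.0286 for each, 2 of 16 ratios computed). MS4A1 alone already separated the groups, so these ratios repeat its fall and are no separate support for it. How many of all genes would separate against MS4A1 was not counted. A ratio within a library does not depend on how libraries are scaled.

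PAX5, the transcription factor that sets and keeps B cell identity (gene 100520167, chromosome 1, 237574938 to 237785454), was the lowest of the 9. It had 0.19, 0.32, 0.34 and 0.13 FPKM in Control pools 1 to 4 and 0.04, 0.09, 0.10 and 0.08 FPKM in Steatosis pools 1 to 4. All Control libraries were above all Steatosis libraries, with means of 0.245 ± 0.102 and 0.0775 ± 0.0263 FPKM (SD, n = 4; exact permutation p = 0.0286). With too few libraries above 0.3 FPKM it was not part of the fit, and in a fit of all 18103 genes with no filter its log2 fold change was -0.92 (SE 0.24, limma adjusted p = 0.0266). At this length (8835 bp) the values stood for an estimated 164 fragments in the 4 Control libraries together (95% Poisson interval 139.9 to 191.1) and 52 in the 4 Steatosis libraries (38.8 to 68.2), intervals that cover counting error only. The study's own list of changed genes, chosen on these libraries, holds PAX5.

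The antibody-secreting side was led by JCHAIN, which encodes the chain that joins the units of polymeric IgA and IgM (gene 100625252, chromosome 8, 67439405 to 67448628). JCHAIN had 14.4, 27.8, 38.3 and 17.2 FPKM in Control pools 1 to 4 and 13.3, 10.7, 9.77 and 13.0 FPKM in Steatosis pools 1 to 4. All Control libraries were above all Steatosis libraries, though pool 1 of the 2 groups differed little, and the Control libraries spread far more than the Steatosis libraries (SD 10.9 and 1.72 FPKM around 24.4 and 11.7). JCHAIN fell by 0.96 on the log2 scale (SE 0.27, limma adjusted p = 0.0273, with the pool block 0.0418), 2.09 times higher in Control. Its call was lost without Control pool 2, Steatosis pool 2 or Steatosis pool 3 (adjusted p 0.0662 to 0.0678).

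MZB1, an endoplasmic reticulum protein that helps assemble secreted antibody (gene 100522482, chromosome 2, 141277541 to 141279652), had 2.24, 3.71, 5.67 and 2.73 FPKM in Control pools 1 to 4 and 3.63, 1.82, 2.44 and 2.44 FPKM in Steatosis pools 1 to 4. The groups overlapped, with Steatosis pool 1 near the middle of the Control libraries. The log2 fold change was -0.41 (SE 0.29, limma adjusted p = 0.302). POU2AF1, the coactivator of octamer-binding factors at antibody genes (gene 100512063, chromosome 9, 39121422 to 39144636), had 2.27, 2.80, 4.26 and 2.64 FPKM in Control pools 1 to 4 and 2.96, 1.25, 2.19 and 2.83 FPKM in Steatosis pools 1 to 4. Those groups overlapped too, and the log2 fold change was -0.39 (SE 0.28, limma adjusted p = 0.313). JCHAIN parted from MZB1, with a JCHAIN to MZB1 ratio of 6.30 to 7.5 in Control and 3.67 to 5.90 in Steatosis (no overlap, exact permutation p = 0.0286). JCHAIN alone already separated the groups, so this ratio is no separate support for its fall.

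**Figure D2:**
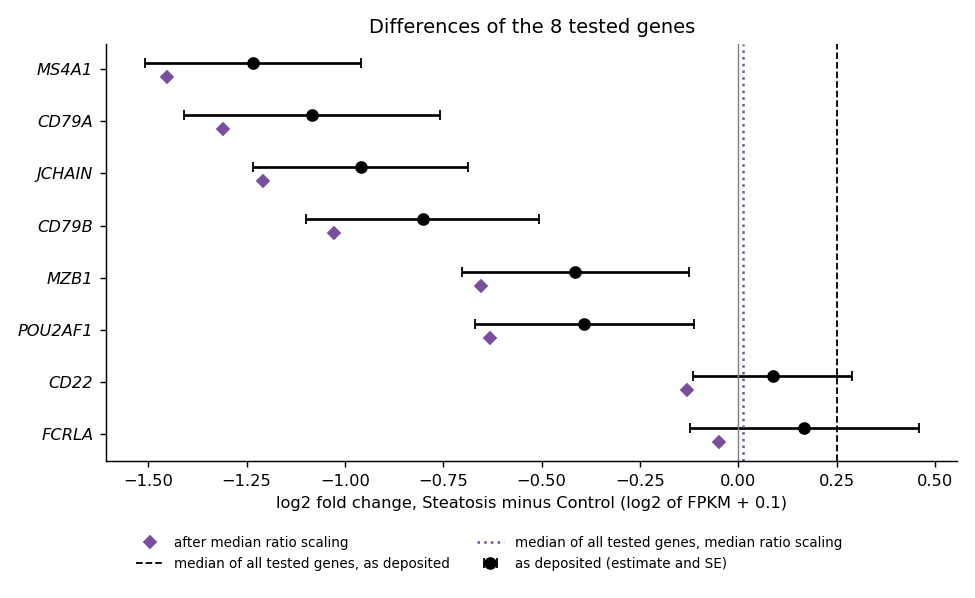
Log2 fold change from Control to Steatosis of the 8 tested genes (x axis), as deposited with its SE (black) and after median ratio scaling (purple), with the median of all tested genes as a dashed line for the deposited values (0.25) and a dotted line after scaling (0.01). The order from MS4A1 (-1.23) to FCRLA (0.17) is the same in both, and the scaled values lie lower.

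In order of mean level in Control the genes were JCHAIN, MZB1, POU2AF1, CD79A, CD79B, MS4A1, FCRLA, CD22 and PAX5, and only the steps from JCHAIN to MZB1 and from CD22 to PAX5 separated neighbours without overlap of their libraries. In Steatosis the order was JCHAIN, MZB1, POU2AF1, FCRLA, CD79A, CD22, CD79B, MS4A1 and PAX5, with non-overlapping neighbours at JCHAIN to MZB1, POU2AF1 to FCRLA and MS4A1 to PAX5. MS4A1 went from close to CD79B, and above CD22 and FCRLA in mean level, to below all 3. FPKM is per length, so these levels can be set beside each other.

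The deposited values leaned towards higher levels in Steatosis over the whole table, and the choice of scaling bears on the members. Of the genes with an adjusted p under 0.05, 3519 were higher and 300 lower, and after median ratio scaling, which moves the median over all genes from 0.25 to 0.01, these counts were 1641 and 1130. Under that scaling 4 members were lower, CD79B joining the other 3 at a log2 fold change of -1.03 (adjusted p = 0.0351), beside 8.58% of all tested genes. CD79A, MS4A1 and JCHAIN then had log2 fold changes of -1.31, -1.45 and -1.21. In the fit blocked by pool number, on the values as deposited, 2 members were lower at an adjusted p under 0.05 (MS4A1 and JCHAIN), beside 2.6% of all genes.

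The difference was uneven over the pool numbers, which were treated as pairs of libraries. This pairing was inferred from correlated deviations (0.16 to 0.35) and is not stated by the study. In pool 3 the log2 ratio of Steatosis to Control was -2.32 for CD79A, -2.0 for CD79B, -1.81 for MS4A1, -1.14 for PAX5 and -1.96 for JCHAIN. In pool 1 the same ratios were -0.03, -0.01, -0.50, -1.05 and -0.11. In pool 2 they were -1.54, -0.57, -1.40, -1.14 and -1.37, and in pool 4 -0.46, -0.63, -1.23, -0.35 and -0.40. The ratio was below 0 in all 4 pools for CD79A, CD79B, MS4A1, PAX5 and JCHAIN. MZB1 and POU2AF1 had positive values in pool 1 (0.67 and 0.37) and negative ones in pools 2 (-0.99 and -1.10) and 3 (-1.18 and -0.93).

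**Figure D3:**
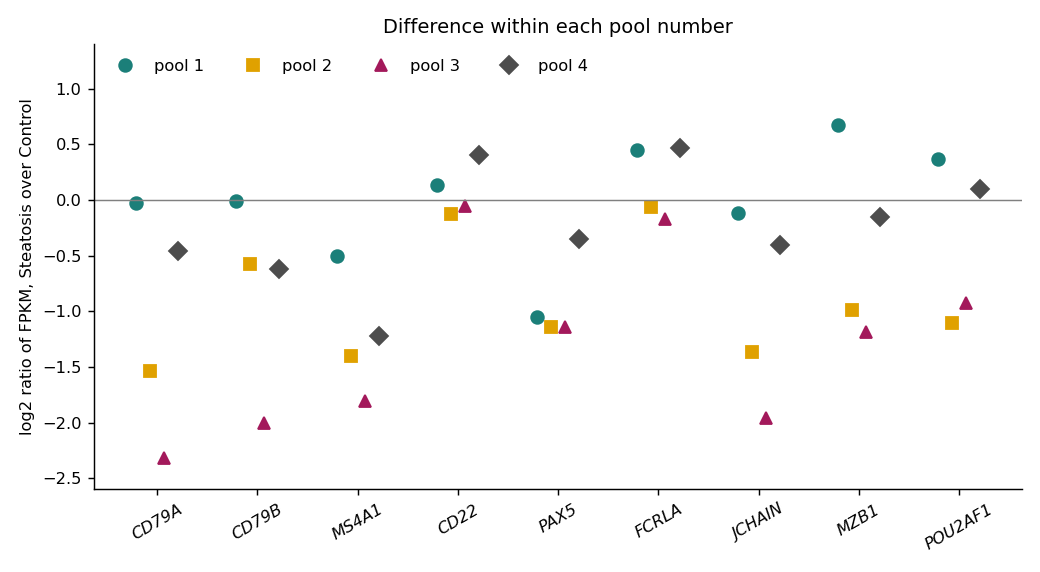
Log2 ratio of FPKM, Steatosis over Control, within each pool number (y axis) for the 9 genes (x axis), with 1 symbol for each of the 4 pools. Pools 2 and 3 lie below 0 for every gene, and pool 1 lies near 0 for CD79A (-0.03), CD79B (-0.01) and JCHAIN (-0.11).

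Much of this unevenness lay in the Control libraries. Control pool 3 had the highest Control value of all 9 genes. Leaving out both libraries of pool 3, an alternative chosen after the values were seen, gave log2 fold changes of -0.67 for CD79A (adjusted p = 0.157), -0.40 for CD79B (0.239), -1.04 for MS4A1 (0.0260) and -0.63 for JCHAIN (0.0982) by limma, so that MS4A1 was the 1 member still lower at an adjusted p under 0.05. Without Control pool 1, the library with the most stomach and muscle markers, MS4A1 fell by 1.43 (adjusted p = 0.00411), JCHAIN by 1.18 (0.00811) and CD79A by 1.33 (0.0118). The coefficient of variation between Control pools was 23.2% for CD22 and 29.2% to 52.2% for the other 8 genes, and between Steatosis pools it was 12.2% to 35.1%.

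Markers of other blood cells moved over the same libraries. Red blood cell markers summed to 557, 400, 1303 and 263 FPKM in Control pools 1 to 4 and to 431, 197, 138 and 149 FPKM in Steatosis pools 1 to 4, with 0 of its 4 tested genes lower at an adjusted p under 0.05 by limma and 1 at an unadjusted one. This sum was highest in Control pool 3, as was the member sum. Within each pool number it was lower in Steatosis than in Control, which the member sum was in pools 2, 3 and 4 but not in pool 1 (23.1 and 24.0 FPKM). HBB, the beta chain of haemoglobin, had a log2 fold change of -1.37 (SE 0.49, limma adjusted p = 0.0599), and it was a lower call in the fit blocked by pool number (adjusted p = 0.0441) and after median ratio scaling (0.0419). The part of blood held in the samples in the result for the members was not tested.

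Summed levels of general leukocyte markers were higher in Steatosis. The 5 pan-leukocyte genes summed to 72.9 to 109.1 FPKM in Control and 174.2 to 205.3 FPKM in Steatosis, macrophage markers to 878 to 1126 and 1843 to 2302 FPKM, and T and NK cell markers to 48.0 to 82.2 and 96.7 to 110.0 FPKM. Most of the pan-leukocyte rise lay in LAPTM5 (34.61 to 96.15 FPKM on average) and LCP1 (17.71 to 48.85), within a sum that went from 90.08 to 195.8. CD52 went from 19.13 to 26.78 FPKM, and the smallest log2 fold change of the 5 was 0.23. GPNMB alone went from 24.1 to 776 FPKM on average, within a macrophage sum that went from 995 to 2048. At an adjusted p under 0.05, 6 of 9 macrophage and 4 of 5 pan-leukocyte genes were higher and 0 lower. After median ratio scaling 4 macrophage genes were higher and 1 lower, and 2 pan-leukocyte genes were higher and 0 lower. Of the 14 T and NK cell markers 2 were higher and 0 lower at an adjusted p under 0.05, NKG7 and CD4, of which the latter is found on some macrophages, beside 26.7% of all genes higher. NKG7 went from 13.5 to 34.6 and CD4 from 8.2 to 18.2 FPKM on average, within a sum of the 14 that went from 64.9 to 103. PTPRC, which encodes the leukocyte antigen CD45 carried by B cells too, had 7.23 to 12.2 FPKM in Control and 11.7 to 15 FPKM in Steatosis, a rise of 0.54 on the log2 scale (SE 0.16, limma adjusted p = 0.0305) that did not pass after median ratio scaling (adjusted p = 0.193). CD3E, a chain of the T cell receptor complex, overlapped between the groups (5.37 to 10.8 and 7.54 to 11.8 FPKM, adjusted p = 0.355).

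Per unit of PTPRC, 7 of the 9 members were lower in Steatosis without overlap, 6 of them among the 8 tested, beside 13% of all tested genes. The ratio to PTPRC was 0.137 to 0.224 in Control and 0.0305 to 0.0827 in Steatosis for CD79A, and 0.113 to 0.187 and 0.0287 to 0.0469 for MS4A1. For JCHAIN it was 1.98 to 3.13 and 0.677 to 1.14. MZB1 (0.3098 to 0.4644 and 0.1213 to 0.3095, the groups nearly touching) and POU2AF1 (0.282 to 0.349 and 0.0833 to 0.252), which overlapped in FPKM, did not overlap on this scale, and CD22 and FCRLA still did. Each of the 7 had the smallest exact permutation p of 0.0286. CD79B, MS4A1, PAX5 and JCHAIN already separated the groups in FPKM, and PTPRC was higher in Steatosis on average. Their ratios to PTPRC therefore repeat their fall and are no separate support for it. Against CD3E, MS4A1 stood at 0.153 to 0.211 in Control and 0.0467 to 0.0769 in Steatosis, which again is no separate support. How many of all genes would separate against CD3E was not counted.

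**Figure D4:**
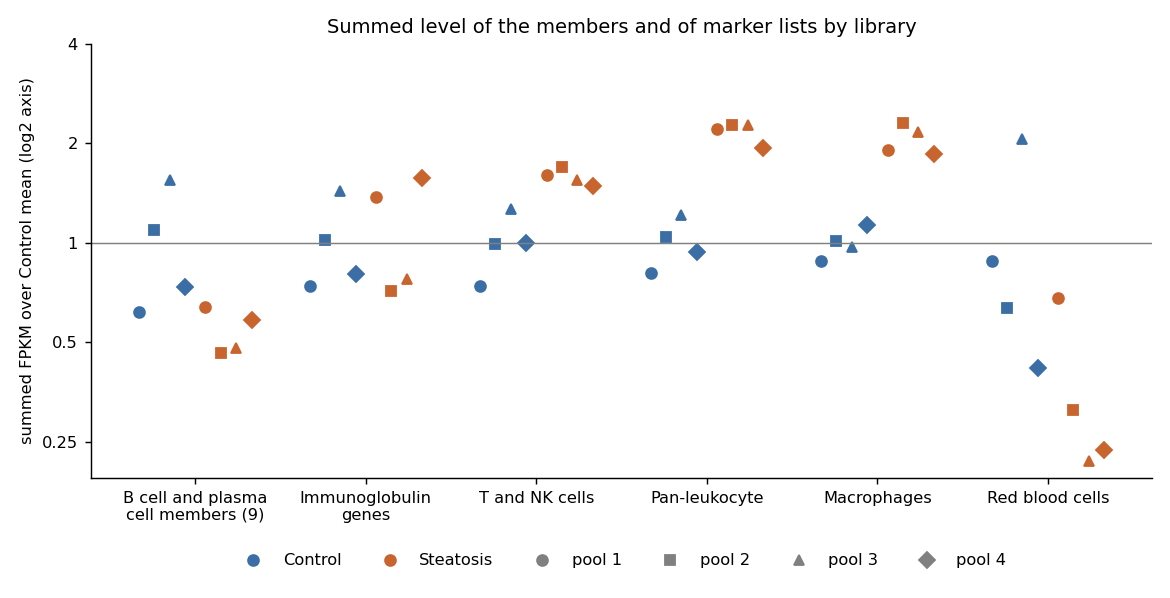
Summed FPKM of the 9 members and of 5 other gene lists in each library, divided by the mean of the 4 Control libraries (y axis, log2 axis), with Control in blue, Steatosis in orange and the symbol shape giving the pool number. Member sums (17.3 to 24.0 FPKM in Steatosis) and red blood cell sums are highest in Control pool 3, while pan-leukocyte and macrophage sums are higher in every Steatosis library than in every Control library.

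Other genes of B cell and plasma cell biology were read from 5 wider lists. Of these, 101 of 105 genes were found and 88 tested, and 9 of these were higher and 0 lower at the limits of the study by limma. Over all genes 6.01% were higher and 0.334% lower at those limits. At an unadjusted p under 0.05, 43 were higher and 4 lower, beside 37.8% and 4.13% of all genes. At an adjusted p under 0.05, 34 were higher and 3 lower, where all genes had 26.7% higher and 2.28% lower. After median ratio scaling the counts were 25 and 8, the latter near the 8.58% of all genes. Their groups did not overlap for 35 genes that were higher and 3 that were lower, beside 29.6% and 2.53% of all genes. Several of these genes are also used by macrophages and other myeloid cells. Of 9 macrophage markers 6 were higher in Steatosis at an adjusted p under 0.05. The part of myeloid cells in the counts was not tested.

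Of the receptor complex and coreceptors, 9 of 12 tested genes were higher and 0 lower at an adjusted p under 0.05 (median log2 fold change 0.72, all genes 0.25). Over all genes 26.7% were higher and 2.28% lower. After median ratio scaling 6 of the 12 were higher and 0 lower, beside 1641 and 1130 of all 13175 genes. CD72, an inhibitory coreceptor, had 0.65 to 1.31 FPKM in Control and 1.97 to 3.62 FPKM in Steatosis (log2 fold change 1.34, SE 0.26, adjusted p = 0.00443). CD180, a Toll-like receptor homologue of B cells and myeloid cells, rose by 1.22 (adjusted p = 0.00104). CD81, a tetraspanin found on most cells, rose by 0.46 (adjusted p = 0.00411), though not after median ratio scaling (0.21, adjusted p = 0.207), and IFITM1, an interferon-induced membrane protein, had 0.44 (adjusted p = 0.310).

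Of the signalling genes downstream of the receptor, 13 of 22 tested were higher and 0 lower at an adjusted p under 0.05 (median 0.72). Over all genes 26.7% were higher and 2.28% lower. After median ratio scaling 11 of the 22 were higher and 0 lower, beside 1641 and 1130 of all 13175 genes. BLNK, the adaptor that links the receptor kinases to their targets, had 1.19 to 2.59 FPKM in Control and 4.74 to 6.41 FPKM in Steatosis (log2 fold change 1.52, SE 0.21, adjusted p = 0.000821). BTK, a kinase of B cells and myeloid cells, rose by 1.33 (adjusted p = 0.000334), VAV1 by 1.09 (adjusted p = 0.000344) and HCLS1 by 1.08 (adjusted p = 0.000163). BANK1, a B cell scaffold protein named after its values were seen, had 2.12 to 2.64 FPKM in Control and 3.97 to 4.88 FPKM in Steatosis (log2 fold change 0.91, adjusted p = 0.000777), opposite to MS4A1.

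Of the transcription factors, 4 of 21 tested were higher and 1 lower at an adjusted p under 0.05 (median 0.30), the higher ones no larger a share than the 26.7% of all genes. SPI1, which B cells share with macrophages, rose by 1.5 (adjusted p = 1.75e-05), IRF8 by 0.86 (adjusted p = 0.000923) and ID3 by 0.66 (adjusted p = 0.000870), while XBP1, the secretory factor that hepatocytes also use, had -0.09 (adjusted p = 0.574). The 1 factor that fell, named after its values were seen, was BACH2, which holds B cells back from becoming plasma cells. BACH2 had 1.59, 1.62, 1.45 and 1.2 FPKM in Control pools 1 to 4 and 0.51, 0.82, 1.14 and 0.53 FPKM in Steatosis pools 1 to 4. Unlike the members it was not highest in Control pool 3, and it fell by 0.94 on the log2 scale (SE 0.24, limma adjusted p = 0.0184), a call lost without Steatosis pool 4 (adjusted p = 0.0549).

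Of the plasma cell and antibody secretion genes, 3 of 16 tested were higher and 2 lower at an adjusted p under 0.05 (median 0.12, all genes 26.7% higher and 2.28% lower), and 1 higher and 6 lower after median ratio scaling (8.58% of all genes lower). PIGR, the epithelial receptor that carries J chain-bound antibody, had 2.51 to 4.75 FPKM in Control and 16.2 to 27.3 FPKM in Steatosis, a rise of 2.53 on the log2 scale (SE 0.21, adjusted p = 6.15e-05) beside the fall of JCHAIN. SSR4 rose by 0.47 (adjusted p = 0.00197, and 0.141 after median ratio scaling), HSP90B1 had -0.34 (0.0701, and -0.59 with 0.0180 after that scaling) and PDIA4 -0.22 (0.138, and -0.47 with 0.0123), all parts of the secretory pathway that hepatocytes share. The 2 that fell, named after their values were seen, were FKBP11, a folding enzyme (60.1 ± 4.01 to 45.6 ± 4.4 FPKM, adjusted p = 0.0136), and EAF2, an elongation factor partner (0.613 ± 0.130 to 0.190 ± 0.143 FPKM, adjusted p = 0.0284). The call of EAF2 was lost without Control pool 3, Control pool 4 or Steatosis pool 2 (adjusted p 0.0562 to 0.0689), and its log2 fold change moved from -1.47 to -2.44 with a pseudocount of 0.01 (adjusted p = 0.0875) and to -0.44 with one of 1.

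Of the survival and homing genes, 5 of 19 tested were higher and 0 lower at an adjusted p under 0.05 (median 0.22), close to the 26.7% of all genes higher. CXCL12, a chemokine that holds plasma cells in their niches, had 54.8 to 65.6 FPKM in Control and 91.3 to 115.0 FPKM in Steatosis (log2 fold change 0.74, adjusted p = 0.00120), and LTBR, a receptor for lymphotoxin, had 0.34 (adjusted p = 0.0483, and 0.558 after median ratio scaling). The lymphoid chemokines CCL19 (-0.23, adjusted p = 0.576) and CCL21 (0.19, adjusted p = 0.688) did not pass. Named after their values were seen, TNFSF13B, the B cell survival factor BAFF, rose by 0.93 (adjusted p = 0.00193), and TNFRSF13C, its receptor on B cells, had 0.74 to 1.01 FPKM in Control and 1.21 to 2.03 FPKM in Steatosis (log2 fold change 0.75, adjusted p = 0.0183, and 0.0703 after median ratio scaling).

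**Figure D5:**
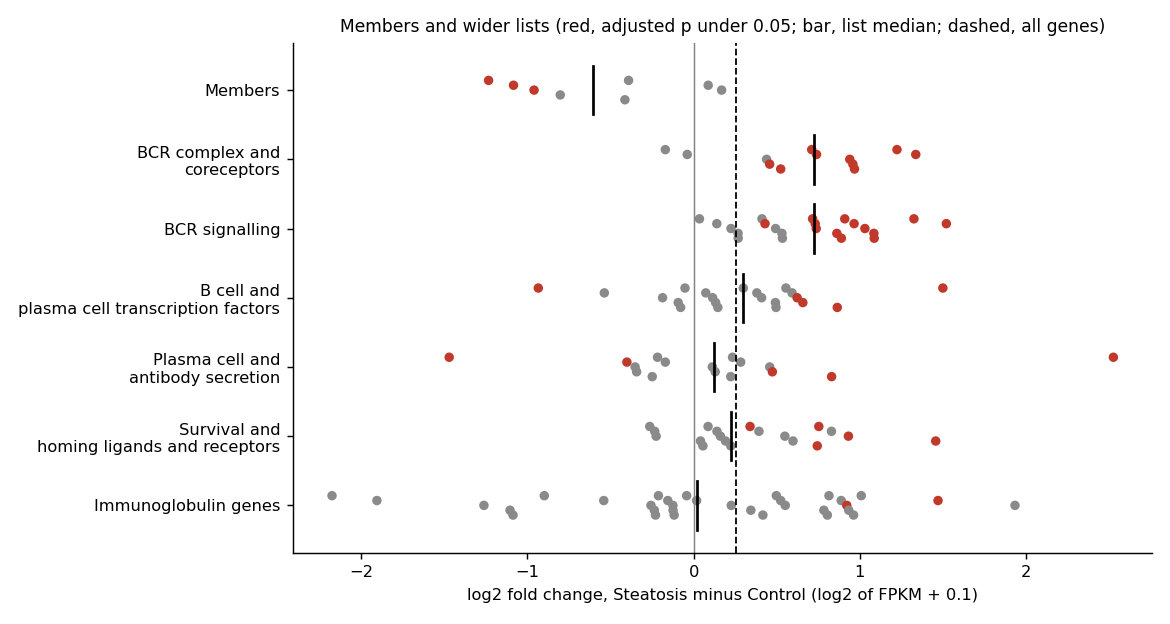
Log2 fold change from Control to Steatosis (x axis) of each tested gene, 1 point per gene, for the members, the 5 wider lists and the immunoglobulin genes, with points in red at an adjusted p under 0.05, a bar at the list median and a dashed line at the median of all genes (0.25). The member median (-0.61) lies left of 0 and those of the receptor complex and signalling lists (0.72 each) right of the dashed line.

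Antibody genes themselves, which plasma cells transcribe at very high levels, varied widely within both groups. Of 35 immunoglobulin genes, 33 were tested, and 2 were higher and 0 lower at an adjusted p under 0.05 by limma (5 higher and 0 lower at an unadjusted p under 0.05), beside 26.7% and 2.28% of all genes (37.8% and 4.13% unadjusted), with a median log2 fold change of 0.02. Their summed level was 685, 940, 1326 and 741 FPKM in Control pools 1 to 4 and 1274, 660, 719 and 1450 FPKM in Steatosis pools 1 to 4. Control pool 3 was again the highest Control library, while in Steatosis pools 1 and 4 were about 2 times pools 2 and 3. LOC100152327, an immunoglobulin lambda-like gene, had 473 FPKM in Steatosis against 487 FPKM in Control on average (log2 fold change -0.12, SE 0.33, adjusted p = 0.808), and LOC396781, an IgG heavy chain, 229 against 188 FPKM (0.23, SE 0.30, adjusted p = 0.602). The 2 that rose were new transcripts similar to IgG heavy chain precursors, BGI_novel_G000013 (1.47, adjusted p = 0.0110) and BGI_novel_G000014 (0.92, adjusted p = 0.0322, and 0.0503 with the pool block). BGI_novel_G000012, an IgG constant region (0.34, adjusted p = 0.367), and BGI_novel_G000189, a kappa light chain (-0.13, adjusted p = 0.809), did not pass. Antibody genes share much sequence, so the split of fragments among them is uncertain. The ratio of JCHAIN to LOC396781 was 0.105 to 0.147 in Control and 0.0362 to 0.0729 in Steatosis, with no overlap (exact permutation p = 0.0286), while that of JCHAIN to LOC100152327 overlapped (0.0387 to 0.0619 and 0.0194 to 0.0446, exact permutation p = 0.0857). As JCHAIN alone separated the groups, the first of these ratios is no separate support for its fall.

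Within the groups the members varied together to different degrees. Across the 8 libraries, after removing each group's mean, the pairwise Pearson correlations among CD79A, CD79B, MS4A1, PAX5 and JCHAIN ranged from 0.20 to 0.90 with a median of 0.65 over 10 pairs. MZB1 and POU2AF1 correlated at 0.85. These are descriptions over libraries that share depth and tissue content, and the low members rest on few fragments (5 to 29 per library for CD79A). Among the 10576 genes with a mean of at least 1 FPKM and a symbol, those most like the average of the tested B cell members in this sense were COMMD8 (r = 0.98), PRMT2, SSBP4, SEPT1 and DUSP2 (r = 0.97 each), and those most like the average of JCHAIN, MZB1 and POU2AF1 were MTG2 (r = 0.99), PIK3R2 and TRAF3IP3 (0.98 each), TMSB10 (0.97) and AGTR1 (0.96).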

How the data were processed

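Hepatic RNA of 4 Control and 4 Steatosis pools was sequenced as 100 bp paired ends. The authors mapped reads with HISAT2 2.0.4 to Sus scrofa 11.1, added new transcripts assembled with StringTie, and deposited FPKM values estimated with Bowtie2 2.2.5 and RSEM 1.2.12. The authors' own pairwise comparisons (fold changes and FDR) were not used, apart from the transcript length column, a score deposited in base pairs. Coordinates are those of RefSeq Sscrofa11.1, in which all 17778 known genes matched. The 325 new transcripts have none.

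The 13175 genes at 0.3 FPKM or more in 4 or more libraries entered 1 fit with limma 3.58.1 (R 4.3.3), made on log2(FPKM + 0.1), with Benjamini-Hochberg adjustment and a trend of variance with mean. Fold changes on this scale understate changes of low genes. Single values were compared with the two-sided exact permutation test of the difference in means. Both the main fit and this test took the libraries as unpaired, though the groups are the same animals. A permutation within pairs was not run, and with 4 pairs its smallest possible p would be larger. The fit was tested on simulated data. Other tables used Python 3.11.15, numpy 2.4.6 and pandas 2.3.3, and plots matplotlib 3.10.9. Depth was estimated from genes of 1 transcript and 500 to 1500 bp, with an effective length 80 bp shorter, where 83.1% to 91.1% of 111 to 190 low values per library were within 0.12 of a whole fragment. No count test was run.

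Deviations from group means of same-numbered pools correlated at 0.16, 0.35, 0.32 and 0.25 over genes (other numbers at most 0.03), so the numbers were treated as pairs. A fit with the number as a block was an alternative, as were filters, pseudocounts of 1 and 0.01, scalings, no trend and leaving out each library. Median ratio scaling with the block, and leaving out pool 3, were chosen after the data were seen. The members and lists were chosen with earlier results of these data known. Named genes were all members, up to 4 per wider list (called genes by fold, then the highest mean FPKM), the 6 most abundant immunoglobulin genes and the 5 genes most like each member average, with exceptions named as such. Proteins that bind immunoglobulin DNA were taken out of the immunoglobulin list after its values were seen.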

Additional observations from a re-analysis of the deposited data

Results flagged for a closer look

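CD79B in Control pool 3 stood far from the other Control pools, with 2.50 FPKM where the other 3 had 0.95 to 1.18 FPKM. The gap to its neighbour was 0.852 of the whole range of the group, above Dixon's 95% critical value for 4 samples. It was the 1 value of this kind in 18 groups of 4 tested (9 genes in 2 groups), and chance alone marks about 1 in 20 such groups. The estimated fragments of CD79B were 65 in that library and 24, 26 and 33 in Control pools 1, 2 and 4.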

How the results depend on the processing

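Over the 8 tested members and 19 alternatives, 130 of 152 log2 fold changes kept their direction and their side of an adjusted p of 0.05. The other 22 were 12 that no longer passed (8 for CD79A, 4 for JCHAIN), 2 of CD79B that came to pass, and 8 of CD22 and FCRLA whose sign turned. MS4A1 had an adjusted p under 0.05 in all 19 (0.00411 to 0.0292). The number of members lower at the limits of the study was 1, and it was 0 with no filter, with a pseudocount of 1 and without pool 3, and 0 to 2 when 1 library was left out. At an adjusted p under 0.05 it was 3, 1 to 3 when 1 library was left out (1 without Control pool 2, Steatosis pool 2 or Steatosis pool 3) and 1 without pool 3. With the replicate block, CD79A lost its call at an adjusted p of 0.0598, as did LTBR (0.0685) and BGI_novel_G000014 (0.0503), and it changed no other member's call.

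Over all genes, 792 were higher and 44 lower. The counts were 429 and 75 with median ratio scaling, 436 and 75 with upper quartile scaling, 432 and 81 with median ratio scaling and the block, 395 higher with a pseudocount of 1, 20 lower without pool 3, and 625 to 778 higher and 26 to 50 lower when 1 library was left out. In the 5 wider lists together, 9 genes were higher at the limits of the study, and 5 were with a pseudocount of 1, 4 with median ratio or upper quartile scaling, 5 with the former and the block, and 8 to 13 without 1 library. None was lower at these limits, where median ratio and upper quartile scaling each gave 1 and fits without 1 library 0 to 1. At an adjusted p under 0.05, 34 were higher and 3 lower, with 8 lower under median ratio or upper quartile scaling, 22 higher and 8 lower under the former with the block, 1 lower without pool 3, and 29 to 37 higher and 2 to 6 lower without 1 library (6 without Control pool 1).

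Signs turned for genes near 0. Under median ratio scaling, with or without the block, the log2 fold change was -0.13 for CD22, -0.049 for FCRLA, -0.024 for LOC396781 and -0.057 for CCL21, and under upper quartile scaling -0.12, -0.042, -0.016 and -0.049. When 1 library was left out, CD22 ranged from -0.063 (without Control pool 4) to 0.19, FCRLA from -0.025 (without Control pool 4) to 0.37, LOC396781 from -0.023 to 0.40, LOC100152327 from -0.32 to 0.17, BGI_novel_G000189 from -0.40 to 0.086 and CCL21 from -0.17 to 0.36. Without pool 3, LOC100152327 had 0.18, CCL19 0.054 and BGI_novel_G000189 0.25. The cause of these changes was not tested. PAX5 had no fit in any setting that kept the filter. Depth limits CD79A and PAX5, which rest on 5 and 7 estimated fragments in their lowest libraries.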

Other observations

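Some cell type markers near the B cell lists had values not described so far. TLR9, a receptor for DNA in B cells and plasmacytoid dendritic cells, had 0.29, 0.39, 0.38 and 0.33 FPKM in Control pools 1 to 4 and 0.85, 1.41, 1.66 and 1.77 FPKM in Steatosis pools 1 to 4, a rise of 1.73 on the log2 scale (SE 0.24, limma adjusted p = 0.000786). MADCAM1, the addressin to which gut-homing lymphocytes bind, had 2.83, 3.58, 3.68 and 2.32 FPKM in Control and 6.44, 6.87, 5.27 and 9.83 FPKM in Steatosis (log2 fold change 1.16, limma adjusted p = 0.00327). NKG7, a granule protein of cytotoxic lymphocytes, rose by 1.36 (adjusted p = 6.15e-05) and CD4, carried by helper T cells and in some species by macrophages, by 1.12 (adjusted p = 0.000990), the 2 of 14 T and NK cell markers that passed. CXCL13, the chemokine that draws B cells into follicles, was under the filter, with 0.10, 0.75, 0.85 and 0.17 FPKM in Control and 0.37, 0.09, 0.00 and 0.09 FPKM in Steatosis, and its groups overlapped.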
